A study of Mus musculus with 4 samples.

Results

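Interferon-stimulated genes are the genes that cells switch on when interferons bind their receptors. A list of 39 of them, out of 22290 genes with a probe, was followed here across 4 arrays of mouse pancreatic islets, the hormone-secreting cell clusters of the pancreas. The list was taken by gene name, and each gene is represented by its brightest probe over the 4 arrays. Of the 39 genes, 36 were well above background on every array by the scanner software's own call.

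Every array held total RNA of hand-picked islets from C57BL/6 mice aged 24 weeks, with 1 array per group. The male Tg E2 group was transgenic males that carried an E2 implant, and the labels give 6 weeks between implantation and the measurement. E2 commonly stands for estradiol, an estrogen. The female Tg group was transgenic females, listed with no treatment. The male Tg group was transgenic males that the labels call diabetic, also with no treatment listed. The male WT group was wild-type males. The labels name neither the transgene nor its promoter, and they do not say how many mice gave the islets of an array. They list no female WT group, so sex and transgene cannot be told apart in female Tg against male WT. No males with a sham implant are listed, so implantation and E2 cannot be told apart in male Tg E2. Only male Tg is labelled diabetic. In comparisons with it, the transgene, sex or the implant cannot be told apart from diabetes as labelled. Without replicates, each difference is one between 2 arrays, it has no replicate check, and no p-value is given.

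As background, type I interferons (interferon alpha and beta) signal through the receptor Ifnar1 and Ifnar2 and assemble a complex with Stat2 and Irf9 that binds the interferon-stimulated response element (ISRE). Interferon gamma signals through Ifngr1 and Ifngr2 and acts at the gamma-activated site (GAS). The genes so induced encode antiviral enzymes, guanosine triphosphatases (GTPases) that attack intracellular pathogens, sensors of foreign nucleic acid, and transcription factors that amplify the response. In islets, interferon signalling is best known from type 1 diabetes and from virus infection of beta cells.

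The DNA stretches below carry the core letters of the ISRE, or of the GAS for Irf8 and Irf1. The ISRE core is shown upstream of genes that were high in male Tg (Isg15, Ifit1, Oas1a, Gbp2, Gbp3 and Igtp). It is shown also for a pair that were not (Irgm1 and Stat2). Sequences are from RefSeq promoter windows of build GRCm38.p6, which run from 250 bases before to 50 bases after a gene's start, and are written 5′ to 3′ on the gene's strand. Capitals mark the ISRE core, taken as GAAA, any 2 bases and GAAA again, which reads TTTC, 2 bases and TTTC from the opposite strand.
Isg15, chr4:156200860-156200911, minus strand, 3 overlapping matches: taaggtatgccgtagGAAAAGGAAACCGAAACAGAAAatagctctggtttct
Ifit1, chr19:34640770-34640828, plus strand, 2 matches: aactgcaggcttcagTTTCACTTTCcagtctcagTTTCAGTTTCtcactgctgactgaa
Oas1a, chr5:120907515-120907560, minus strand, 2 overlapping matches: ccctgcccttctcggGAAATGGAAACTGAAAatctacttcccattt
Gbp2, chr3:142620589-142620628, plus strand, 1 match: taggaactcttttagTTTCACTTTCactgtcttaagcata
Gbp3, chr3:142559984-142560029, plus strand, 2 overlapping matches: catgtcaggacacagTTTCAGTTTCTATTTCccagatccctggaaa
Igtp, chr11:58199507-58199546, plus strand, 1 match: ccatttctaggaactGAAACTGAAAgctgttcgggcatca
Irgm1, chr11:48871420-48871465, minus strand, 2 overlapping matches: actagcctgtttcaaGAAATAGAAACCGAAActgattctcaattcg
Stat2, chr10:128270261-128270300, plus strand, 1 match: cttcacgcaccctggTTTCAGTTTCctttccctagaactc
Irf8 and Irf1 held no ISRE core in their windows and are shown for the GAS core, TTCNNNGAA, which reads the same on both strands and is in capitals here.
Irf8, chr8:120736172-120736228, plus strand, 2 matches: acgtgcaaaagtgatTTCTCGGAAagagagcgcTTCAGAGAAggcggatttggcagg
Irf1, chr11:53769909-53769947, plus strand, 1 match: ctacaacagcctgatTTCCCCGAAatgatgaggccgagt

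Windows were found for 27 of the 39 genes. The ISRE core, searched on both strands, was in the windows of 15 of these 27 genes (55.6%), and 3.99% of all 27025 genes with a window held it. The GAS core was in 7 of the 27 (25.9%), against 9.55% of all genes, and both cores were in 3 of them (Oas1a, Gbp5 and Igtp, 11.1%), against 0.614%. No GAS match overlapped an ISRE match in these windows. Genes named without a window here are Oas1b, Oas2, Mx1, Mx2, Gbp4, Gbp6, Usp18, Dhx58, Rtp4, Zbp1, Parp14 and Iigp1. In the map of motif positions, most ISRE matches lie in the 120 bases or so before the start, and those of Ddx58 and Ifih1 lie just after it. Oas1g carries the same ISRE stretch as its close copy Oas1a.

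**Figure D1:**
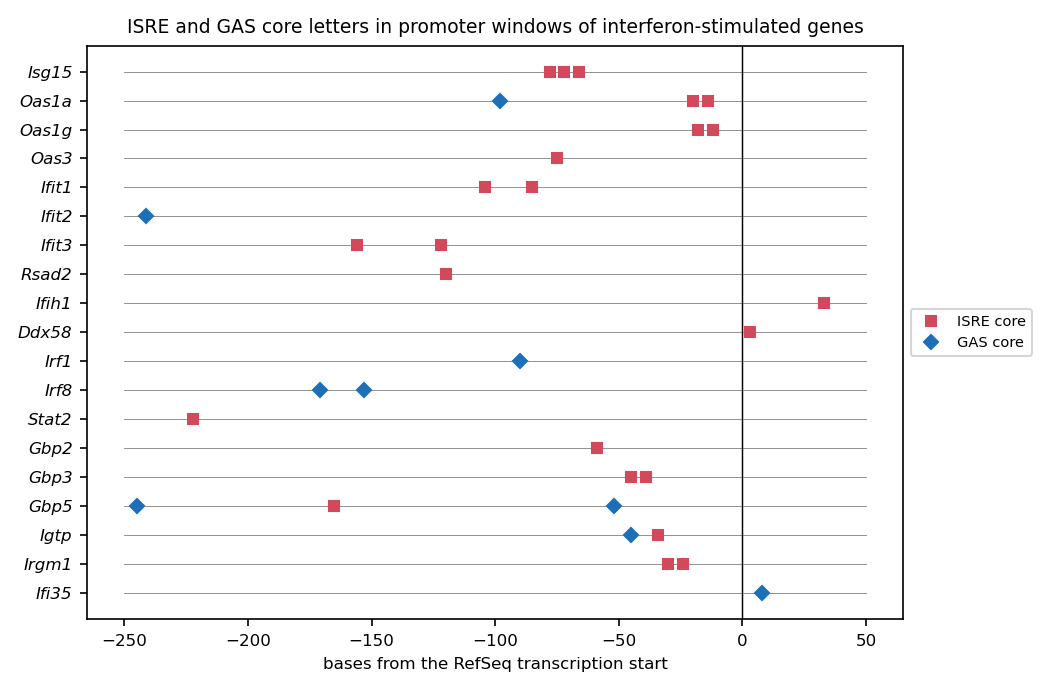
Positions of the ISRE core and GAS core in the promoter windows of the interferon-stimulated genes that hold either, with distance from the gene's start in bases on the horizontal axis and 1 row per gene. ISRE matches are in 15 genes and GAS matches in 7.

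All 4 arrays lay on 1 slide with 1 scan time, and no spot was saturated. Between 49.9% (female Tg) and 54.8% (male WT) of spots were well above background. Throughout, a level is the log2 processed intensity of a probe minus the array's 75th percentile, and a difference is one of 2 such levels in log2 units. Levels of different probes cannot be set against each other. The scanner's error model gave differences of the listed genes a median standard error (SE) of 0.20 to 0.21 and a highest SE of 0.40, and these errors do not cover variation between mice. As a check of the labelled tissue, all 6 islet hormone genes were well above background on every array. Their summed level, on a linear scale where 1 is the array's 75th percentile, was 4648 in male Tg E2, 4745 in female Tg, 6078 in male Tg and 3610 in male WT.

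Male Tg islets had the highest level of most of the listed genes. Of the 36 genes detected everywhere, 28 were highest in male Tg, 5 in female Tg, 2 in male Tg E2 and 1 in male WT. No gene was lowest in male Tg, whereas 18 were lowest in male WT and 14 in male Tg E2. Female Tg was second highest for 24 genes. The median level was 0.42 in male Tg E2, 0.87 in female Tg, 1.58 in male Tg and 0.25 in male WT. These ranks were not counted over all genes. Male Tg was the dimmest array, with a 75th percentile of spot intensity of 230. This percentile was 338 in male Tg E2, 294 in female Tg and 410 in male WT. Scaling therefore raised male Tg levels most. Before scaling, some listed genes were not highest in male Tg, such as Irf1 (3238 there and 4813 in male WT). In whole-islet RNA, fewer cells of a type and less RNA per cell cannot be told apart.

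**Figure D2:**
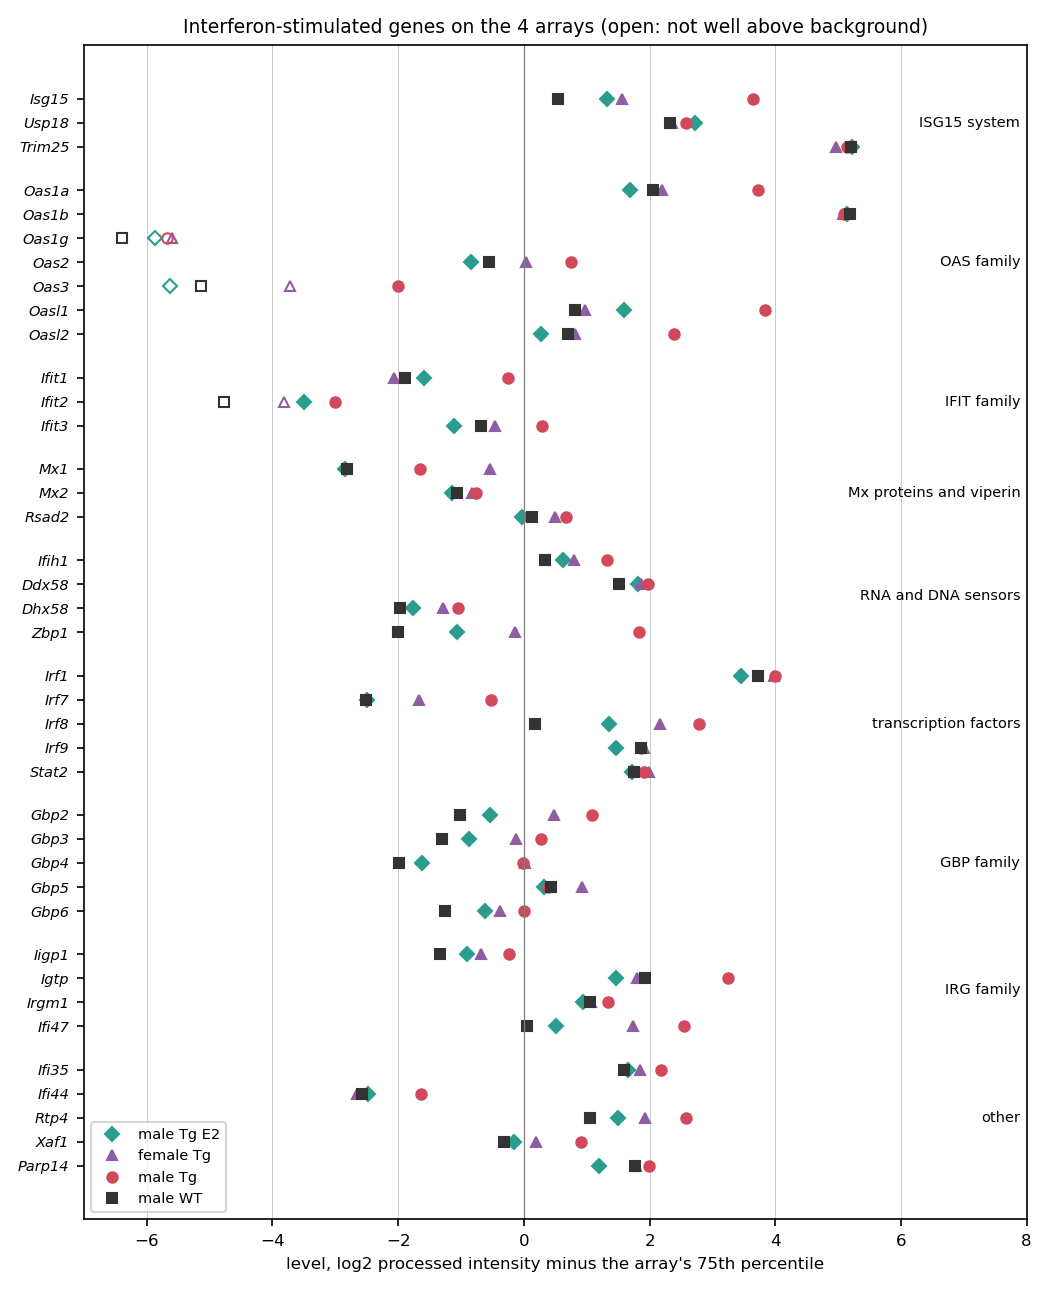
Level of each of the 39 genes on each array (log2 processed intensity minus the array's 75th percentile), grouped by role, with open symbols where the probe was not well above background. The male Tg points lie furthest right for most rows, and the levels of Oas1b, Trim25 and Stat2 lie close together on all 4 arrays.

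In male Tg against male WT, 19 of the 36 genes with a value (52.8%) exceeded male WT by 2-fold or more, none was below it by as much, and 17 lay between. The same held for 15.7% (higher) and 8.68% (lower) of all 14342 genes in this comparison. The median difference was 1.12 over the listed genes and −0.21 over all genes. The furthest were Zbp1 (3.84), Isg15 (3.10), Oasl1 (3.03), Irf8 (2.61) and Ifi47 (2.49). Only Oas1b (−0.10), Trim25 (−0.05) and Gbp5 (−0.04) had a negative sign, all by less than their SE. When arrays were centred on their median instead of the 75th percentile, 13 listed genes were at least 2-fold higher and none lower (Igtp, Oas2, Gbp6, Xaf1, Mx1 and Iigp1 then lay between 0.76 and 0.98), while over all genes the split turned to 12.3% higher and 20.4% lower.

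In male Tg E2 against male Tg, 18 of 37 measured genes (48.6%) were at least 2-fold lower and none was higher by that much. The shares over all 14575 genes were 8.03% lower and 2.53% higher. The median difference was −0.85 over the listed genes and 0.12 over all genes. With normexp, a model-based background correction, and quantile normalization together, 14 genes were past 2-fold, and Ifit1 (−0.91), Mx1 (−0.56), Gbp3 (−0.88) and Xaf1 (−0.96) were then inside 2-fold. The lowest were Zbp1 (−2.90), Isg15 (−2.33), Oasl1 (−2.25), Oasl2 (−2.12), Oas1a (−2.05) and Ifi47 (−2.04). The positive signs, of Usp18 (0.13), Trim25 (0.08) and Oas1b (0.06), were all within the SE. This comparison and the preceding one share the male Tg array, so opposite signs in them are not independent.

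In female Tg against male Tg, 9 of 36 measured genes (25.0%) were at least 2-fold lower and 1, Mx1, was at least 2-fold higher (1.12). Over all 14166 genes, 8.6% were at least 2-fold lower and 3.54% higher. The median difference was −0.42 over the listed genes and 0.10 over all genes. The 9 genes were Oasl1 (−2.87), Isg15 (−2.09), Zbp1 (−1.96), Ifit1 (−1.81), Oasl2 (−1.59), Oas1a (−1.53), Igtp (−1.45), Irf7 (−1.15) and Ifi44 (−1.02). With normexp and quantile normalization, Mx1 (0.77), Irf7 (−0.77) and Ifi44 (−0.48) lay inside 2-fold, and Ifi44 did so with quantile normalization alone (−0.98) and with median scaling (−0.88). None of the 5 measured guanylate-binding proteins was among these 9 by its used probe. The other Gbp6 probe, annotated to Gbp10 as well, gave −1.165, past 2-fold, where the used one gave −0.39.

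Against male WT, male Tg E2 had 1 of 36 genes at least 2-fold higher, Irf8 (1.18), and none at least 2-fold lower. Over all 14542 genes, 8.83% were higher and 2.64% lower in that comparison, so the listed share of 2.78% higher was below that of all genes. The median difference was 0.07 over the listed genes and −0.09 over all genes. Female Tg against male WT had 8 of 36 (22.2%) at least 2-fold higher and none lower, where 7.65% of all 14177 genes were higher and 3.47% lower. The 8 were Mx1 (2.27), Irf8 (2.0), Gbp4 (2.0), Zbp1 (1.87), Ifi47 (1.68), Gbp2 (1.49), Gbp3 (1.18) and Isg15 (1.01). With median scaling Irf8 in male Tg E2 (0.99), and Isg15 (0.83) and Gbp3 (0.99) in female Tg, were inside 2-fold of male WT. The cumulative plot shows these shifts against all genes.

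**Figure D3:**
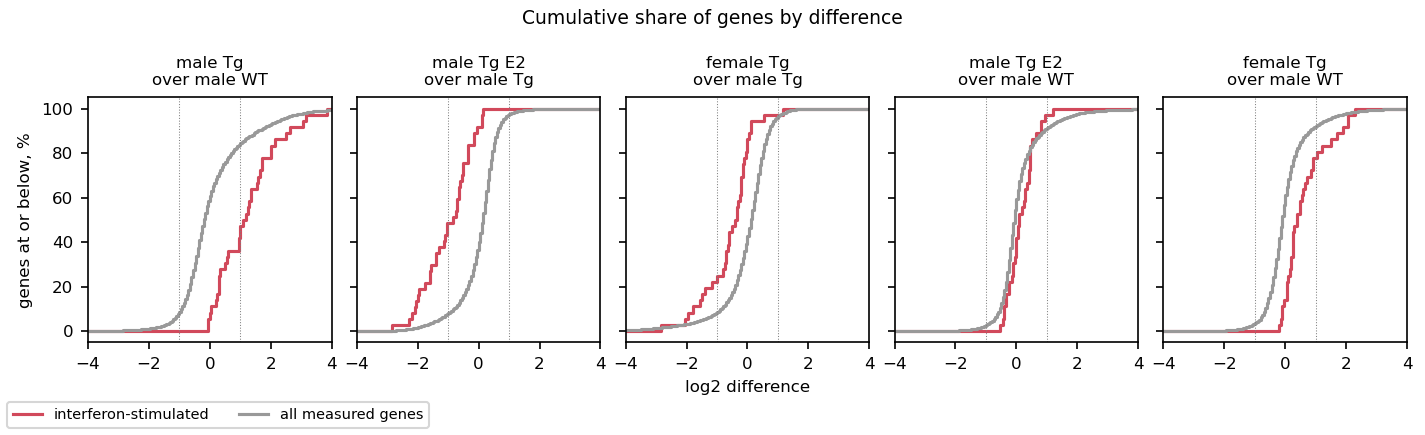
Cumulative share of genes (vertical axis, percent) at or below a log2 difference (horizontal axis) in each of the 5 comparisons, for the measured interferon-stimulated genes and for all measured genes; dotted lines mark 2-fold. The curve of the listed genes lies right of all genes in male Tg over male WT (medians 1.12 and −0.21) and left of it in male Tg E2 over male Tg (medians −0.85 and 0.12).

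Ligands come at the head of the pathway and are not among the 39 genes. Ifng, which encodes interferon gamma, had a level of −3.89 in male Tg E2, where it was not well above background, −2.80 in female Tg, −1.78 in male Tg and −3.98 in male WT. It was therefore highest in male Tg, by 2.20 over male WT (SE 0.36), and male Tg E2 was at least 3.89-fold lower than male Tg. Ifng signal was near background, with processed intensities of 23.1 in male WT and 59.0 in male Tg. The male WT level was called well above background although it lay below the male Tg E2 level that was not, so 2.20 is uncertain. An "at least" fold compares the bright array with the higher of the dim array's lowest well-measured level and the probe's own level. Ifnb1, which encodes interferon beta, was not well above background on any array. Of 15 ligand genes, 4 were measured in male Tg against male WT, and Ifng was the only one at least 2-fold higher.

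Most receptor and signalling genes outside the list, 16 of 22, were within 2-fold in male Tg against male WT. Of 22 measured, 6 (27.3%) were at least 2-fold higher in male Tg than in male WT and none lower. Over all genes the shares were 15.7% and 8.68%. The median was −0.14, against −0.21 over all genes. Ifnar1 (−0.25) and Ifnar2 (0.18), the type I receptor chains, differed little there, whereas the interferon gamma receptor chains Ifngr1 (1.21) and Ifngr2 (1.03) were higher. Ifngr2 was −0.99 in male Tg E2 and −1.19 in female Tg, each against male Tg. Irf4, a transcription factor of lymphocytes, showed the widest gap, 3.06 over male WT, and Irf5 (1.59), Ifnlr1 (1.42, a receptor chain for interferon lambda) and Socs1 (1.22, a feedback inhibitor) completed the 6.

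Among the listed transcription factors, Irf7 and Irf8 differed most, and Stat2, Irf9 and Irf1 differed little. Irf7, which amplifies type I interferon production, had a level of −2.5 in male Tg E2, −1.67 in female Tg, −0.52 in male Tg and −2.51 in male WT. Male Tg stood above the others, by 2.0 over male WT, and male Tg E2 was at the male WT level (0.01). Irf7 processed intensities were low in male Tg E2 (53.0) and male WT (64.0), so that match is uncertain. The Irf7 probe maps to chr7:148450664-148451014 (mm9), a span longer than the probe's 60 bases. Irf8, a factor of myeloid cells and B lymphocytes, had a level of 1.35 in male Tg E2, 2.17 in female Tg, 2.78 in male Tg and 0.17 in male WT (probe chr8:123280324-123280383, mm9). All 3 transgenic arrays lay above male WT for Irf8, by 1.18, 2.0 and 2.61.

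Irf1, induced by interferon gamma through a GAS, ranged only between 3.45 in male Tg E2 and 4.0 in male Tg. Stat2 levels were 1.72 in male Tg E2, 1.99 in female Tg, 1.91 in male Tg and 1.75 in male WT. Irf9, the DNA-binding partner of Stat2, was 1.46 in male Tg E2, 1.92 in female Tg, 1.86 in male Tg and 1.86 in male WT. Both stayed within 2-fold in all 5 comparisons, although the Stat2 window printed above holds an ISRE core.

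Sensors of foreign nucleic acid on the list were Zbp1, Ifih1, Dhx58 and Ddx58, and Zbp1 stood apart from the RIG-I family. Zbp1, which binds Z-form nucleic acid and can trigger cell death, had a level of −1.07 in male Tg E2, −0.14 in female Tg, 1.83 in male Tg and −2.01 in male WT (probe chr2:173039307-173039366, mm9). Every transgenic array was above male WT, and male Tg was highest, with a difference of 3.84 (SE 0.22) over male WT. Its other probe gave −2.47 in male Tg E2 and −1.61 in female Tg, each against male Tg, where the used probe gave −2.90 and −1.96.
Ifih1 (MDA5, a sensor of long double-stranded RNA) was 0.99 higher in male Tg than in male WT, just inside the 2-fold threshold, and Dhx58 (LGP2, its regulator) was 0.93 higher. Ddx58 (RIG-I) differed by 0.47. In male Tg E2 against male Tg these 3 genes gave −0.69, −0.72 and −0.17. Of 13 measured sensing genes outside the list, 4 (30.8%) were at least 2-fold higher in male Tg than in male WT, against 15.7% of all genes. Among them were Sting1 (2.68, an adaptor of DNA sensing), Ifi204 (1.77) and Cgas (1.43, the DNA sensor upstream of Sting1).

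Within the ISG15 system, Isg15 differed widely between arrays, and Usp18 and the used Trim25 probe differed little. Isg15, a ubiquitin-like modifier, had a level of 1.32 in male Tg E2, 1.56 in female Tg, 3.65 in male Tg and 0.55 in male WT (probe chr4:155573649-155573708, mm9). Male Tg stood well above the other arrays, and male Tg E2 was 5.02-fold and female Tg 4.25-fold below it. Usp18, which removes ISG15 and restrains Ifnar2 signalling, was 2.72 in male Tg E2, 2.35 in female Tg, 2.59 in male Tg and 2.32 in male WT. Trim25, a ligase that activates RIG-I and conjugates ISG15, was 5.23 in male Tg E2, 4.97 in female Tg, 5.15 in male Tg and 5.20 in male WT. By the used probes, the widest difference of either enzyme in the 5 comparisons was 0.40, for Usp18 in male Tg E2 over male WT. The other Trim25 probe, which carries no RefSeq accession, gave 0.65 for male Tg over male WT, where the used one gave −0.05. Outside the list, Uba7, the activating enzyme for ISG15, was 0.83 over male WT in male Tg and −1.13 in male Tg E2 against male Tg.

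OAS enzymes sense double-stranded RNA and make the messenger 2-5A, and some family members lack that activity. Of 5 family members measured in male Tg against male WT, 4 (80.0%) were at least 2-fold higher, with a median of 1.68. Over all genes, 15.7% were higher by as much. Oas1a levels were 1.68 in male Tg E2, 2.20 in female Tg, 3.73 in male Tg and 2.05 in male WT. The Oas1a probe (chr5:121346735-121346794, mm9) is annotated to transcripts of both Oas1a and Oas1g, so its signal may come from either gene. Oas2 levels were −0.85 in male Tg E2, 0.03 in female Tg, 0.75 in male Tg and −0.56 in male WT. The pattern was the same for both genes, with male Tg highest and male Tg E2 slightly below male WT (−0.37 and −0.29).
Oasl1, which represses translation of Irf7 in mice, was 1.59 in male Tg E2, 0.97 in female Tg, 3.84 in male Tg and 0.81 in male WT. Female Tg was near male WT for Oasl1 (0.16) and 7.29-fold below male Tg. Oasl2, an OAS-like protein with a ubiquitin-like end, was 0.27 in male Tg E2, 0.81 in female Tg, 2.39 in male Tg and 0.70 in male WT. Oas3 was well above background only in male Tg, at −2.01, which was at least 4.79-fold over male WT. Against it, male Tg E2 was at least 3.32-fold and female Tg at least 2.70-fold lower. Oas1b, a flavivirus resistance gene in mice, stood at 5.15 in male Tg E2, 5.08 in female Tg, 5.09 in male Tg and 5.19 in male WT, a range of 0.11 over the 4 arrays. Its probe carries no RefSeq accession, and the Oas1g probe was not well above background on any array.

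IFIT proteins bind foreign RNA and block its translation. Ifit1 had a level of −1.60 in male Tg E2, −2.07 in female Tg, −0.25 in male Tg and −1.90 in male WT (probe chr19:34723796-34723855, mm9). Male Tg alone was high, and male Tg E2 and female Tg lay on either side of male WT (0.30 and −0.17). Ifit3 was −1.12 in male Tg E2, −0.47 in female Tg, 0.29 in male Tg and −0.68 in male WT, so its difference of 0.97 over male WT just missed 2-fold while male Tg E2 was 1.41 below male Tg. Ifit2 was well above background in male Tg E2 and male Tg only, with a difference of −0.50 between them. It was at least 2.40-fold higher in male Tg than in male WT.

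Mx1, a dynamin-like GTPase that blocks influenza virus in mice with an intact gene, was the listed gene that was at least 2-fold higher in female Tg than in male Tg. Its level was −2.84 in male Tg E2, −0.54 in female Tg, −1.66 in male Tg and −2.81 in male WT. Female Tg was highest, 1.12 above male Tg and 2.27 above male WT, and male Tg E2 matched male WT (−0.04). Mx1 signal was low in the males, with processed intensities of 41.7 in male Tg E2, 64.2 in male Tg and 52.1 in male WT. Female Tg gave 180. Differences among such dim signals are uncertain. The C57BL/6 strain is known to carry a defective Mx1 gene, and the array reads its RNA only (probe chr16:97668644-97668703, mm9). Mx2 stayed between −1.14 in male Tg E2 and −0.76 in male Tg. Rsad2 (viperin, which makes a chain-terminating nucleotide) was −0.04 in male Tg E2, 0.49 in female Tg, 0.67 in male Tg and 0.12 in male WT, within 2-fold in all comparisons.

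Guanylate-binding proteins (GBPs) and immunity-related GTPases (IRGs) are strongly induced by interferon gamma and attack the vacuoles of intracellular pathogens. Of the GBPs, 4 of 5 (80.0%) were at least 2-fold higher in male Tg than in male WT, against 15.7% of all genes. Gbp2 levels were −0.55 in male Tg E2, 0.47 in female Tg, 1.09 in male Tg and −1.01 in male WT (probe chr3:142300719-142300778, mm9). Gbp3 levels were −0.88 in male Tg E2, −0.12 in female Tg, 0.26 in male Tg and −1.30 in male WT. Gbp4 levels were −1.61 in male Tg E2, 0.02 in female Tg, −0.01 in male Tg and −1.98 in male WT. For these 3 genes female Tg and male Tg were the top pair, above both other arrays. Female Tg exceeded male WT by 1.49, 1.18 and 2.0.
Gbp6 was 1.26 over male WT in male Tg and −0.62 in male Tg E2 against male Tg. Gbp5 was discordant between probes. The used one, which carries no RefSeq accession, gave −0.04 for male Tg over male WT and −0.06 for male Tg E2 over male Tg, while the other gave 1.25 and −1.41. Gbp10, a relative outside the list, was lower in male Tg than in male WT by its own probe (−2.86). The Gbp6 probe annotated to Gbp10 as well gave 1.60 in that comparison. GBP genes are close copies of one another, so probes may share signal between them.

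Ifi47 and Igtp (Irgm3), both IRGs, were at least 2-fold higher in male Tg. Ifi47 levels were 0.50 in male Tg E2, 1.74 in female Tg, 2.54 in male Tg and 0.05 in male WT (probe chr11:48910402-48910461, mm9). Igtp levels were 1.47 in male Tg E2, 1.79 in female Tg, 3.24 in male Tg and 1.93 in male WT. The pair differed in the female, where Ifi47 was 1.68 above male WT and Igtp was at −0.13. Iigp1 was 1.1 over male WT in male Tg, but its probes disagreed in male Tg E2 against male Tg (−0.66 and 1.65). Irgm1, a regulator of the other IRGs, was 0.95 in male Tg E2, 1.06 in female Tg, 1.33 in male Tg and 1.05 in male WT, within 2-fold despite the pair of ISRE cores printed above.

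**Figure D4:**
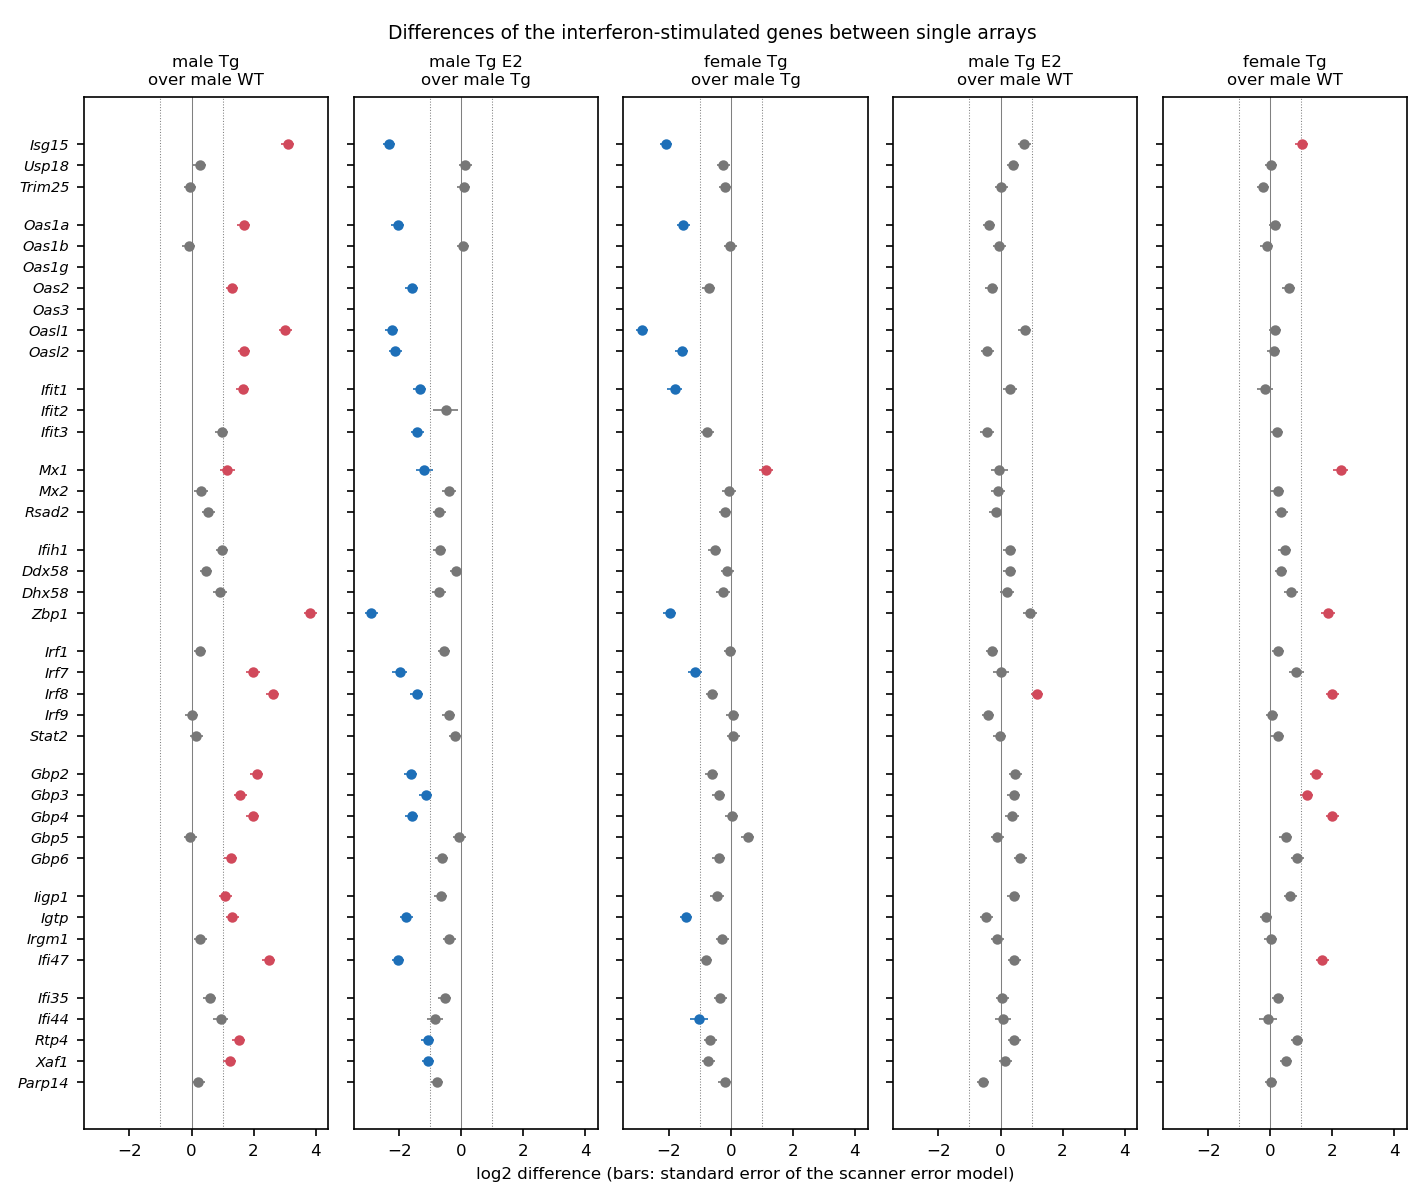
Log2 difference of each listed gene in the comparisons, with 1 row per gene grouped by role; bars show the SE of the scanner's error model and dotted lines mark 2-fold. Zbp1, Isg15 and Oasl1 lie furthest out in male Tg over male WT (3.84, 3.10 and 3.03) and again, on the negative side, when male Tg E2 is set over male Tg (−2.90, −2.33 and −2.25).

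Of the 39 genes, 14 had several probes, and in male Tg against male WT several were measured for 8 of them. Probes of Oas1b, Trim25 and Gbp5 disagreed in sign there, and among these only those of Gbp5 lay over 1 log2 unit apart. Between male Tg E2 and male Tg the sign differed for 4 of 9 genes (Oas1b, Ddx58, Trim25 and Iigp1), and the probes of Gbp5 and Iigp1 lay over 1 log2 unit apart.

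The remaining listed genes belong to no family described so far. Rtp4, a receptor transporter with antiviral activity, was 1.5 in male Tg E2, 1.92 in female Tg, 2.58 in male Tg and 1.05 in male WT. Xaf1, which antagonises an inhibitor of apoptosis, was −0.16 in male Tg E2, 0.19 in female Tg, 0.91 in male Tg and −0.32 in male WT. Both were past 2-fold over male WT in male Tg (1.53 and 1.23) and below male Tg in male Tg E2 (−1.08 and −1.07). Ifi44 was 0.94 over male WT in male Tg and −1.02 in female Tg against male Tg. Its processed intensities were low, 53.5 in male Tg E2, 41.5 in female Tg, 65.4 in male Tg and 61.3 in male WT. Ifi35 (0.59) and Parp14 (0.22) stayed within 2-fold of male WT, and Parp14 had its lowest level in male Tg E2, 1.20, against 1.99 in male Tg and 1.76 in male WT.

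Listed genes with and without an ISRE core gave similar counts. In male Tg against male WT, 6 of 13 measured holders were at least 2-fold higher (median 0.99), and 6 of 11 measured genes whose window lacked it were (median 1.23). For male Tg E2 against male Tg, 7 of 13 holders were at least 2-fold lower (median −1.14), and 6 of 12 without it were (median −0.96). In female Tg against male Tg the counts were 4 of 13 (median −0.52) and 4 of 11 (median −0.72). Finding no match says only that these letters are not in that window.

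Other interferon-stimulated genes, outside the 39, were counted in the same way. Of 50 measured, 21 (42.0%) were at least 2-fold higher and 2 (4.0%) lower in male Tg than in male WT, with a median of 0.65. Over all genes the shares were 15.7% and 8.68%. Cxcl9 (3.65), a chemokine induced by interferon gamma, Ifi27l2a (3.22), Apol9b (3.11) and Slfn2 (2.86) had the largest differences. Set against male Tg, male Tg E2 had 14 of 50 at least 2-fold lower and 1 higher (median −0.57), led by Cxcl9 (−2.64), Apol9b (−2.54) and the chemokine Cxcl10 (−2.53). These shares were 28.0% and 2.0%, against 8.03% and 2.53% of all genes. In female Tg against male Tg, 6 of 50 were lower and 3 higher (12.0% and 6.0%, near the shares of all genes given above, median −0.19), with Apol9b (−2.78) and Apol9a (−2.70) furthest.

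Antigen processing genes, many of them under interferon gamma control, were also high in male Tg. Of 13 measured, 6 were at least 2-fold higher than in male WT (46.2%, against 15.7% of all genes, median 0.83). They included Nlrc5, the activator of class I genes, at 2.5, the immunoproteasome subunit Psmb10 at 2.10, and B2m, the light chain of class I molecules, at 1.48. In male Tg E2 against male Tg, 6 of 13 were at least 2-fold lower (46.2%, against 8.03% of all genes, median −0.64), with Nlrc5 at −1.97. In female Tg against male Tg, 1 of 13 was (7.69%, near the 8.6% of all genes, median −0.20), and Psmb10 was at −1.80.

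Markers of some other cell types differed in the same direction as these genes, and others followed them less closely. In male Tg E2 against male Tg, stellate and matrix markers had a median of −0.08, and the listed genes −0.85. For female Tg against male Tg, medians were −0.15 for lymphocyte and −3.69 for acinar markers, and −0.42 for the listed genes. The part of other cell types in the results was not tested. The summed level of 16 lymphocyte markers was 33.6 in male Tg E2, 78.0 in female Tg, 128 in male Tg and 26.1 in male WT. At most 1 of them, Cd8a in male Tg E2, was not well above background. Of these markers, 12 of 16 measured were at least 2-fold higher in male Tg than in male WT (median 2.14), and 11 of 15 were at least 2-fold lower in male Tg E2 than in male Tg (median −1.84). Over all genes, 15.7% were higher in the first of these comparisons and 8.03% lower in the second. Ms4a1 (CD20, a B cell marker) was 3.70 over male WT in male Tg, and 15 of the 16 markers had a positive sign there, Cd3e (−0.39) being the exception. The summed level of 16 macrophage and granulocyte markers was 102 in male Tg E2, 123 in female Tg, 155 in male Tg and 80.7 in male WT, with a median of 1.19 in male Tg against male WT (11 of 15 measured at least 2-fold higher) and −0.13 in male Tg E2 against male Tg (7 of 16 at least 2-fold lower). Mpo, a granulocyte enzyme, was not well above background in female Tg and male WT. Ptprc (CD45, carried by all leukocytes) was 2.99 over male WT in male Tg.

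Markers of blood, exocrine and supporting cells differed too. Erythrocyte markers summed to 184 in male Tg E2, 542 in female Tg, 1594 in male Tg and 347 in male WT. Platelet markers summed to 8.03 in male Tg E2, 46.1 in female Tg, 89.4 in male Tg and 38.6 in male WT. Acinar markers summed to 6754 in male Tg E2, 1482 in female Tg, 10430 in male Tg and 1376 in male WT. Stellate and matrix markers summed to 96.4 in male Tg E2, 48.5 in female Tg, 120 in male Tg and 11 in male WT. In comparison, the 39 interferon-stimulated genes summed to 137.5 in male Tg E2, 148.9 in female Tg, 211 in male Tg and 136.3 in male WT. Oas1b and Trim25 had the highest levels of the listed genes (5.19 and 5.20 in male WT) and weigh most in these sums. Both differed little between arrays, which draws the sums together. All sums here add different probes, whose signals are not on a common scale. The lymphocyte and the macrophage and granulocyte sums ran, like those of the listed genes, from male Tg through female Tg to the other arrays. The islet hormone sums given above ran in the same order, so this order was not particular to leukocyte markers. The listed genes' sums in male Tg E2 and male WT were nearly equal. The acinar and stellate sums put male Tg E2 above female Tg, and the erythrocyte and platelet sums put male Tg E2 below male WT.

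**Figure D5:**
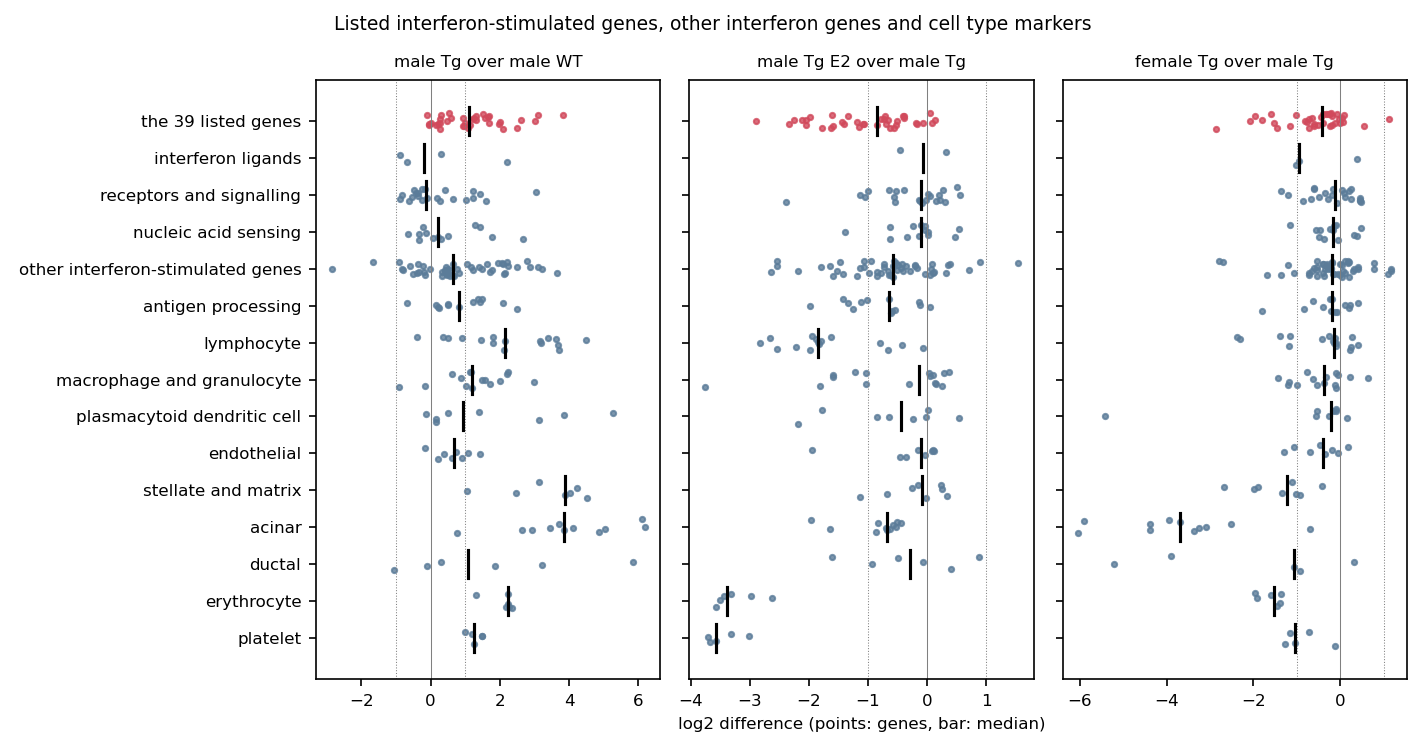
Median log2 difference of the 39 listed genes, of the other interferon pathway lists and of the cell type marker lists in 3 comparisons (male Tg over male WT, then male Tg E2 and female Tg, each over male Tg); points are genes. Lymphocyte markers show medians of 2.14, −1.84 and −0.15, and the listed genes 1.12, −0.85 and −0.42.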

How the data were processed

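Total RNA of islets was hybridised to 4 Agilent 1-colour (Cy3) mouse arrays, 1 per group. The deposited scanner files hold intensity on a linear scale, background-corrected per the file headers by Feature Extraction 10.7.1.1 (the submitters' processing notes give 9.5.1.1). Probe positions refer to mm9, without assignment to exons or untranslated regions. The authors' deposited series table held quantile-normalized intensity, without log2, and served as an alternative. Outlier-flagged spots were removed, spots of a probe averaged, log2 taken, and the array's 75th percentile over non-control probes subtracted. A gene is a file name known to RefSeq (GRCm38.p6), with its brightest probe. A difference needed both arrays well above background. No test was possible with 1 array per group, so a 2-fold threshold was used. Any listed gene may be named. From each other pathway list, up to 4 genes past 2-fold with the largest differences per comparison were eligible, with Ifng, Ifnb1 and the interferon receptors always named, and a few genes of this rule are not reported here. From marker lists up to 3 were eligible. Uba7, Gbp10 and Cd3e were named after their values were seen. The 39 genes and all lists were chosen with earlier results of these data known. The computation was tested on simulated data. Python 3.11.15, R 4.3.3 and limma 3.58.1 were used.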

Additional observations from a re-analysis of the deposited data

How the results depend on the processing

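Under other settings 1335 values of single listed genes moved by less than their error, 112 moved further and 0 past the threshold changed sign. No paired analysis was possible because each group has 1 array. The settings were median scaling, quantile normalization, normexp background correction with offset 50 and quantile normalization, the authors' deposited values, no background filter, detection on all 4 arrays, the mean over probes, and centring on the median of all genes. No background filter and detection on all 4 arrays change only which genes are counted, so values of single genes could not move there. The mean over probes could not move genes with a single measured probe. The 1335 include all these values. Of the 19 genes at least 2-fold higher in male Tg than in male WT, 13 kept this in all 8 settings, and Gbp6, Igtp, Iigp1, Mx1, Oas2 and Xaf1 did not. In male Tg E2 against male Tg 13 of 18 kept it and Gbp3, Ifit1, Mx1, Rtp4 and Xaf1 did not. In female Tg against male Tg 7 of 9 lower genes kept it and Ifi44, Irf7 and the higher Mx1 did not. In female Tg against male WT 6 of 8 kept it and Gbp3 and Isg15 did not, and Irf8 in male Tg E2 against male WT did not.

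The median of male Tg over male WT was 0.79 with median scaling, 0.79 with normexp and quantile normalization, and 1.33 relative to all genes, whose median moved to −0.54 under median scaling. Normexp with quantile normalization left 0 genes higher in female Tg than in male Tg. For male Tg E2 over male WT the count of higher genes was 0 with median scaling, 2 with no background filter and 2 relative to all genes. At 4-fold, 6 genes were higher in male Tg than in male WT (6.99% of all genes were), 6 lower in male Tg E2 than in male Tg (1.74%), 2 lower and 0 higher in female Tg than in male Tg (3.27% and 0.141%), 0 higher in male Tg E2 than in male WT (2.35%) and 3 higher in female Tg than in male WT (2.19%). At 1.5-fold, 16 were lower in female Tg than in male Tg (15.5% of all genes), 5 higher in male Tg E2 than in male WT (14.5%) and 14 higher in female Tg than in male WT (13.3%). Of these, 2 of 36 and 5 of 36 lie near the shares of all genes. The causes were not tested. Near background, as for Ifit2 and Oas3, signal limits a difference to a bound.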
